A study of Eulimnogammarus verrucosus and Eulimnogammarus cyaneus and Gammarus lacustris with 24 samples.

Results

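The genes described are those whose names in the 3 deposited tables match a fixed set of names, ignoring case: OPN with a number, Rh1 to Rh7, Arr1, Arr2, and the fly photoreceptor genes trp, trpl, ninaA, ninaC, norpA, inaD, inaC, rdgA, rdgB, rdgC and Galpha49B. These were 9 of 12688 entries: OPN4 and Arr2 in all 3 species, Arr1 in Gammarus lacustris only, and TRP in Eulimnogammarus verrucosus and Eulimnogammarus cyaneus. The 9 entries rested on 13 assembled transcripts, of which 9 had enough counts to be tested. No entry matched any of the other names. The members were chosen by name, with the log2 fold changes and adjusted p-values of the authors' deposited tables already known, so values between temperatures describe them and support nothing further.

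The pools came from adult amphipods, small crustaceans, taken whole. E. verrucosus and E. cyaneus are endemic to Lake Baikal, and G. lacustris is widespread in lakes of the northern hemisphere. Animals spent 14 days at 6 °C, were brought over about 6 days to 1.5 °C or to 12 °C, and stayed there for 1 month, so neither group was kept at its starting temperature. Each group held 4 pools. A pool of E. verrucosus held 3 animals, while one of E. cyaneus held about 13 and one of G. lacustris about 11. Each species has an assembly of its own, so levels are set side by side across species and differences between species were not tested.

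In the eyes of arthropods, light turns an opsin of the rhabdomeric kind into its active form. The active opsin drives a Gq protein and phospholipase C, and TRP channels then open. Arrestins bind the active opsin and end the signal, so opsin and arrestin are made together in photoreceptor cells. OPN4 is the vertebrate name of melanopsin, the opsin of vertebrates that is closest to those of arthropod eyes. Arr1 and Arr2 are the names of the Drosophila visual arrestins, of which Arr2 is the major one in fly photoreceptors. The names rest on the authors' annotation. In whole-body RNA, fewer cells of a type and less RNA per cell cannot be told apart.

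Totals per library lay between 8501814 and 15417652 estimated counts. The 10 most abundant transcripts held 11.4 to 25.5% of a library, with the highest share in 12 °C replicate 1 of E. cyaneus. Adjusted p-values of edgeR come from its quasi-likelihood test over all transcripts of a species. By that test 39.8% of the transcripts tested differed between temperatures for G. lacustris, 0.629% for E. cyaneus and 3.34% for E. verrucosus, and 46.4%, 14.2% and 11.4% had an unadjusted p under 0.05. The G. lacustris fold changes in the authors' deposited table lay above those of edgeR by a median log2 of 0.65 over 1517 paired transcripts, against a median of -0.02 in E. verrucosus and -0.09 in E. cyaneus. The size factors recovered from the deposited G. lacustris means differed in mean log2 by -0.62 (1.5 °C minus 12 °C), where library sizes scaled by TMM differed by 0.03. For the G. lacustris entries named below, deposited fold changes are therefore given also with this shift subtracted. The edgeR median over those 1517 paired transcripts was -0.98, against 0.11 over all transcripts tested. A shifted value near -0.98 is thus typical of named genes of this species.

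Opsin was measured at moderate levels in all 3 species. The OPN4 transcript of E. verrucosus was 1593 bases long and averaged 45.1 ± 30.2 TPM at 1.5 °C and 28.98 ± 11.6 TPM at 12 °C (SD, n = 4 each). The OPN4 transcript of E. cyaneus was 1039 bases long and averaged 20.5 ± 10.7 TPM at 1.5 °C and 78.0 ± 42.98 TPM at 12 °C. In G. lacustris the entry summed 2 transcripts of separate assembly components, 1653 and 325 bases long, and averaged 11.9 ± 4.5 TPM at 1.5 °C and 4.66 ± 3.71 TPM at 12 °C. The shorter one had 9 counts over all 8 pools, against 1192 for the longer one, and was not tested. TPM is a level per transcript length, so it can be compared between genes.

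Arrestin stood above opsin in E. verrucosus and far below it in E. cyaneus. The 2 Arr2 transcripts of E. verrucosus together averaged 78.8 ± 9.0 TPM at 1.5 °C and 99.5 ± 49.03 TPM at 12 °C. The single Arr2 transcript of E. cyaneus averaged 2.78 ± 1.59 TPM at 1.5 °C and 3.35 ± 2.75 TPM at 12 °C. The 2 Arr2 transcripts of G. lacustris together averaged 17.4 ± 6.1 TPM at 1.5 °C and 11.4 ± 5.0 TPM at 12 °C. Arr1 of G. lacustris averaged 5.76 ± 3.08 TPM at 1.5 °C and 2.71 ± 2.04 TPM at 12 °C. In E. cyaneus the lowest OPN4 pool, at 8.40 TPM, was above the highest Arr2 pool, at 6.88 TPM. In E. verrucosus and G. lacustris the ranges of neighbouring genes over the 8 pools overlapped, although within a pool Arr2 exceeded OPN4 in 7 of 8 pools of E. verrucosus and in 8 of 8 of G. lacustris. Arr1 was below OPN4 in 8 of 8 pools of G. lacustris.

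Among all entries of the authors' deposited tables ordered by mean normalised count, Arr2 of E. verrucosus ranked 98 of 3920, and OPN4 ranked 350 of 3920 there and 384 of 3674 in E. cyaneus. For G. lacustris the authors' deposited table ranked Arr2 at 503, Arr1 at 843 and OPN4 at 848 of 5094. These ranks are not per length.

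TRP was close to absent in these libraries. Its entry in E. verrucosus summed transcripts of 373 and 360 bases, with 2, 8, 0 and 0 counts at 1.5 °C and 0, 1, 2 and 4 counts at 12 °C. In E. cyaneus a transcript of 239 bases had 0, 1, 0 and 0 counts at 1.5 °C and 0, 1, 1 and 0 counts at 12 °C. The name is written in capitals, and whether it stands for the light-gated channel of the fly is not given in the sources used here. No fold change is given at such counts.

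OPN4 of E. cyaneus had a lower mean level in the cold. Its normalised levels (CPM, counts scaled to the library by TMM factors) at 1.5 °C were 8.39, 29.6, 22.1 and 13.8 CPM in replicates 1 to 4, and at 12 °C they were 24.6, 84.9, 116.5 and 89.3 CPM. Of these, 3 of the 12 °C pools lay far above every 1.5 °C pool, while 12 °C replicate 1 lay inside the 1.5 °C range, so that the groups overlapped through that pool. The log2 fold change was -2.09 (SE 0.50) in edgeR, with an unadjusted p of 0.0020 and an adjusted p of 0.101, which missed the threshold. DESeq2 on the same counts gave -2.12 (SE 0.50) with an adjusted p of 0.00199. In the authors' deposited table it was -2.16 (SE 0.43) with an adjusted p of 7.75e-05. Without 12 °C replicate 1, the library whose most abundant transcripts took the largest share, edgeR gave -2.41 (SE 0.38) with an adjusted p of 0.0383. Over the 8 fits that each left out 1 pool, the fold change stayed between -2.42 and -1.85 and the adjusted p between 0.0383 and 0.242.

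No change of that size was measured for Arr2 of E. cyaneus. It had 8.39, 15.5, 9.54 and 2.98 CPM at 1.5 °C and 1.59, 8.61, 13.6 and 23.1 CPM at 12 °C, ranges that overlapped throughout. The lowest and the highest pool were both 12 °C pools. Its edgeR log2 fold change was -0.38 (SE 0.67), with an adjusted p of 0.835, and the interval of 1 SE around it holds 0. OPN4 was, in the authors' deposited table, the 1 of 2 member entries of E. cyaneus with an adjusted p that passed the threshold. TRP had no adjusted p there. The call of OPN4 was lower at 1.5 °C, where 4.03% of the 2458 entries with an adjusted p were called lower and 6.27% in either direction. In edgeR 0 of 2 transcripts passed and 1 had an unadjusted p under 0.05. In DESeq2 1 of 2 passed, where 4.27% of all transcripts did.

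**Figure D1:**
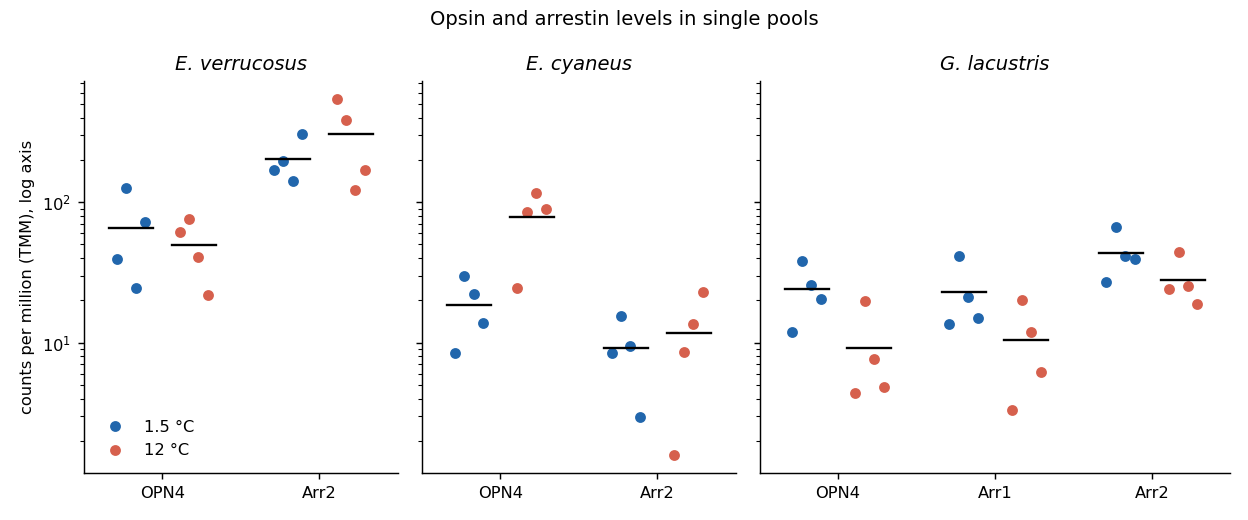
Normalised counts (CPM with TMM factors, log axis) of OPN4, Arr1 and Arr2 in each pool at 1.5 °C (blue) and 12 °C (red), with transcripts of one entry summed and a black line at the mean of 4 pools. The E. cyaneus OPN4 pools at 12 °C sit between 24.6 and 116.5 CPM, with 3 of them above all pools at 1.5 °C, while the G. lacustris genes have higher means at 1.5 °C and overlapping ranges.

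In G. lacustris the opsin and both arrestins had higher mean levels in the cold. The longer OPN4 transcript had 11.6, 37.9, 25.4 and 20.4 CPM at 1.5 °C and 4.37, 20.0, 7.47 and 4.86 CPM at 12 °C. In all, 3 pools at 1.5 °C were above all pools at 12 °C, and 1.5 °C replicate 1 was below 12 °C replicate 2. The edgeR log2 fold change was 1.38 (SE 0.53), with an unadjusted p of 0.0250 and an adjusted p of 0.0604. DESeq2 gave 1.45 (SE 0.56) with an adjusted p of 0.0235. Leaving out 12 °C replicate 2 gave 2.27 (SE 0.46; adjusted p 0.00352 by edgeR), and leaving out 1.5 °C replicate 1 gave 1.80 (SE 0.55; adjusted p 0.0244 by edgeR). Over all 8 fits that each left out 1 pool, the fold change ran from 1.18 to 2.27 and the edgeR adjusted p from 0.00352 to 0.138.

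Arr1, the arrestin named in this species only, had 13.7, 41.6, 21.1 and 14.9 CPM at 1.5 °C and 3.31, 20.2, 11.9 and 6.20 CPM at 12 °C. Within each temperature the order of the pools was that of OPN4, with replicate 2 highest at both temperatures and replicate 1 lowest at both. Its edgeR log2 fold change was 1.13 (SE 0.55) with an adjusted p of 0.130, and without 12 °C replicate 2 it was 1.85 (SE 0.56) with an adjusted p of 0.0249. As each pool was left out in turn, the fold change ran from 0.83 to 1.85 and the edgeR adjusted p from 0.0249 to 0.250.

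The summed Arr2 transcripts of G. lacustris had 27.1, 66.5, 41.1 and 39.1 CPM at 1.5 °C and 24.1, 44.2, 25.1 and 19.0 CPM at 12 °C. The edgeR log2 fold change was 0.63 (SE 0.34), with an adjusted p of 0.181. The transcripts of 1917 and 1902 bases are variants of one assembled gene that can share reads, so their separate values are uncertain. Taken one by one they gave 0.89 (SE 0.65; adjusted p 0.314 by edgeR) and 0.42 (SE 0.33; adjusted p 0.341 by edgeR). Without 12 °C replicate 2 the longer of these variants gave 1.77 (SE 0.64; adjusted p 0.0493 by edgeR), and over the 8 fits it ran from 0.61 to 1.77 with an edgeR adjusted p of 0.0493 to 0.470.

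All 3 G. lacustris entries passed the threshold in the authors' deposited table, with log2 fold changes of 2.01 (SE 0.47) for OPN4, 1.75 (SE 0.51) for Arr1 and 1.27 (SE 0.34) for Arr2. The adjusted p-values there were 7.48e-05 for OPN4, 0.00151 for Arr1 and 0.000687 for Arr2 in the authors' deposited table. There, 58.9% of the 4993 entries with an adjusted p were called, and 25.1% were called as higher at 1.5 °C. With the shift of 0.65 subtracted, the values of the authors' deposited table became 1.36 for OPN4, 1.098 for Arr1 and 0.62 for Arr2. The shift is the median difference from edgeR, so values close to those of edgeR follow from its definition. They do not tell which scaling is right. In edgeR 0 of 4 transcripts passed and 1 had an unadjusted p under 0.05. In DESeq2 1 of 4 passed, where 43.5% of all transcripts did. When the size factors recovered from the deposited table replaced TMM in edgeR, 3 of 4 transcripts passed, where 66.2% of all transcripts did, and the median log2 fold change of all transcripts tested moved to 0.75, against 0.11 with TMM. The number of calls thus moved with the scaling.

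**Figure D2:**
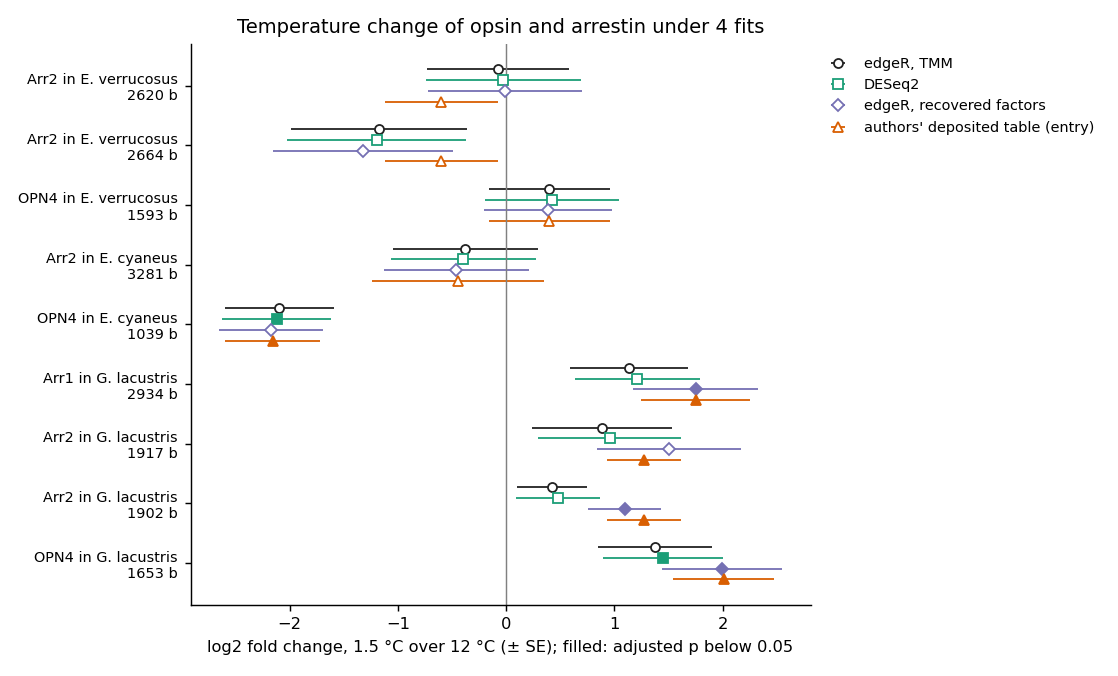
Log2 fold change of 1.5 °C over 12 °C with its SE for each tested opsin and arrestin transcript under 4 fits; filled symbols have an adjusted p below 0.05, and the authors' value is that of the whole entry. The E. cyaneus OPN4 values lie between -2.17 and -2.09, and the G. lacustris values from the authors' scaling lie to the right of those with TMM.

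In E. verrucosus neither gene differed beyond the spread between pools. OPN4 had 39.5, 126.3, 24.4 and 72.3 CPM at 1.5 °C and 61.0, 75.6, 40.4 and 22.0 CPM at 12 °C. The highest pool was a cold one and the lowest a warm one, with the rest interleaved. The edgeR log2 fold change was 0.40 (SE 0.56; adjusted p 0.893). It became -0.14 (SE 0.52) when 1.5 °C replicate 2 was left out. Summed Arr2 had 168.0, 196.3, 140.7 and 305.0 CPM at 1.5 °C and 543.0, 383.5, 121.0 and 170.3 CPM at 12 °C, with an edgeR log2 fold change of -0.59 (SE 0.50; adjusted p 0.787). The values of the authors' deposited table were 0.40 (SE 0.56) for OPN4 and -0.60 (SE 0.52) for Arr2. Of the 3 entries of E. verrucosus, 0 passed there, where 4.69% of entries did. In edgeR 0 of 3 transcripts passed and 0 had an unadjusted p under 0.05, and in DESeq2 0 of 3 passed, where 5.85% of all transcripts did.

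The Arr2 variants of E. verrucosus, of 2620 and 2664 bases, traded places from pool to pool. The shorter held 40.4, 74.0, 16.5 and 90.04% of Arr2 TPM at 1.5 °C and 25.2, 53.01, 81.5 and 59.7% at 12 °C. Neither variant was the main one in every pool of a temperature. In G. lacustris the 1917-base variant held 37.2, 52.6, 31.7 and 63.8% at 1.5 °C and 13.2, 55.0, 54.6 and 19.0% at 12 °C. Each E. verrucosus pool holds only 3 animals, and variation between animals and the splitting of shared reads cannot be told apart in these shares.

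OPN4 varied from pool to pool more than most transcripts in each species, and single arrestin transcripts did with 1 exception. The SD of log2 CPM within a temperature was 0.91 for OPN4 of E. verrucosus, beside a median of 0.60 over all tested transcripts, and larger than that of 74.5% of them. For OPN4 of E. cyaneus it was 0.90 beside a median of 0.47, larger than for 88.5% of transcripts. For OPN4 of G. lacustris it was 0.85 beside a median of 0.54, larger than for 84.7%. Arr2 of E. cyaneus, with an SD of 1.33, exceeded 95.996% of transcripts, and Arr1 of G. lacustris, with an SD of 0.93, exceeded 88.2%. The Arr2 variants of E. verrucosus had SDs of 1.14 for the one of 2620 bases and 1.42 for the one of 2664 bases, above 82.6% and 88.0% of transcripts. In G. lacustris the 1917-base variant had an SD of 1.15, above 92.8%. The exception was the 1902-base variant, whose SD of 0.48 was below the median and above only 39.2%. SDs of variants hold the uncertain splitting of shared reads, and none was ranked for summed Arr2. The highest G. lacustris pool of summed Arr2 was 2.45 times the lowest at 1.5 °C and 2.33 times at 12 °C. For summed OPN4 there these were 3.18 and 4.57. Summed Arr2 of E. verrucosus had 2.17 and 4.49, and OPN4 there 5.16 and 3.43.

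The pool-to-pool variation was shared by opsin and arrestin in G. lacustris. This relation was measured after the mean of each temperature was subtracted, so it does not use the contrast between temperatures. Over 8 pools, OPN4 and Arr1 had a Pearson r of 0.92 (exact permutation within temperatures, 2-sided p = 0.00868) and a Spearman rho of 0.93 (exact p = 0.00694). OPN4 and summed Arr2 had an r of 0.93 (exact permutation p = 0.00694) and a rho of 0.95 (exact p = 0.00521). Adjusted over the 5 relations computed, both Pearson p-values were 0.0217 and both Spearman p-values 0.0174 by the exact permutation test. Without the 2 pools farthest from the median of OPN4, 1.5 °C replicate 1 and 12 °C replicate 2, r was 0.96 with Arr1 and 0.76 with Arr2. Both arrestins are set against the same OPN4 values, and all values of a pool share its library scaling.

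The other 3 relations did not pass after adjustment. Arr1 and Arr2 of G. lacustris had an r of 0.80 (exact permutation p = 0.0313, adjusted 0.0521) and a rho of 0.79 (exact p = 0.0434, adjusted 0.0543), and r fell to 0.29 without replicate 2 of each temperature, on which it rests. OPN4 and Arr2 of E. cyaneus had an r of 0.78 (exact permutation p = 0.0642, adjusted 0.0803) and a rho of 0.79 (exact p = 0.0417, adjusted 0.0543). Leaving out the pools farthest from the median there, replicate 1 of each temperature, gave an r of 0.81, and r ran from 0.44 to 0.93 as each pool was left out in turn, lowest without 12 °C replicate 1. OPN4 and Arr2 of E. verrucosus had an r of 0.60 (exact permutation p = 0.108, adjusted 0.108) and a rho of 0.62 (exact p = 0.116, adjusted 0.116), and r was 0.47 without 1.5 °C replicate 3 and 12 °C replicate 4. All 5 correlations were positive.

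**Figure D3:**
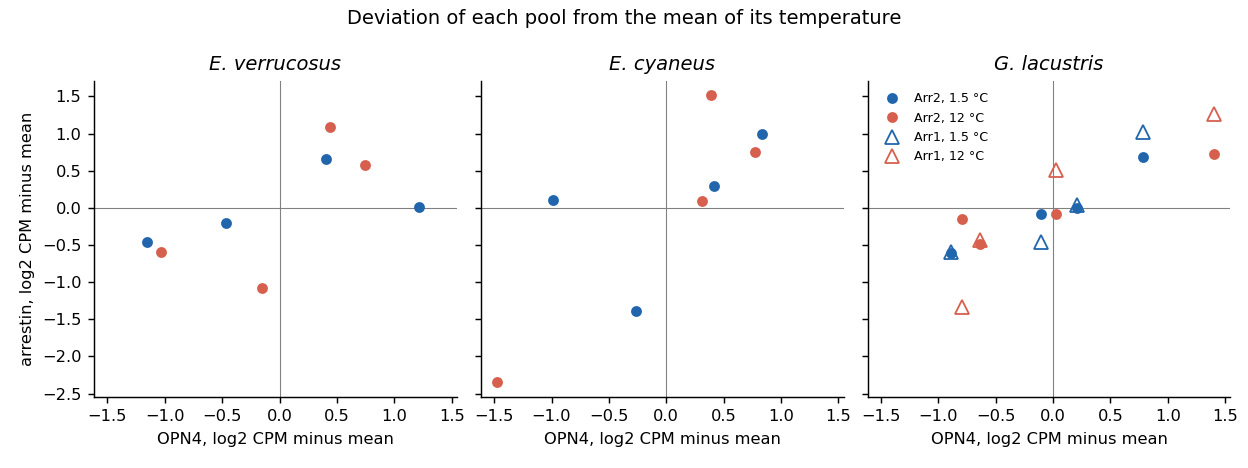
Log2 CPM of arrestin (vertical) against OPN4 (horizontal) for each pool, both as the difference from the mean of the 4 pools of its temperature; circles are Arr2 with transcripts summed, triangles Arr1, blue 1.5 °C and red 12 °C. The G. lacustris points follow a rising line with r of 0.92 for Arr1 and 0.93 for Arr2, and the other species scatter more widely.

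Within each pool, the ratio of arrestin to opsin is free of library scaling. In G. lacustris the TPM ratio of Arr2 to OPN4 was 1.58, 1.46, 1.33 and 1.56 at 1.5 °C and 4.74, 1.89, 2.27 and 3.35 at 12 °C. The pools at 1.5 °C were all below the pools at 12 °C and close to each other, with an SD of 0.11 on the log2 scale, against 0.59 at 12 °C. How often ratios of other gene pairs separate in this way was not measured. By edgeR 39.8% of the transcripts tested differed in this species, so the separation is no trait of this pair. The difference of mean log2 ratios, 1.5 °C minus 12 °C, was -0.96. The ratio of Arr1 to OPN4 was 0.377 to 0.578 at 1.5 °C and 0.409 to 0.688 at 12 °C, and these ranges overlapped.

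In E. cyaneus the ratio of Arr2 to OPN4 was 0.276, 0.146, 0.122 and 0.0600 at 1.5 °C and 0.0181, 0.0289, 0.0326 and 0.0723 at 12 °C. Only 1.5 °C replicate 4 fell inside the 12 °C range. The difference of mean log2 ratios was 1.97, the opposite sign of that in G. lacustris. In E. verrucosus the ratio ran from 0.880 to 3.23 at 1.5 °C and from 1.70 to 5.05 at 12 °C, overlapping, with a difference of -0.68. In all 3 species the temperature with the higher OPN4 mean had less arrestin per opsin transcript, a relation that holds OPN4 on both sides. These ratios use the same pools and the same contrast as the fold changes, so they are given with no test.

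**Figure D4:**
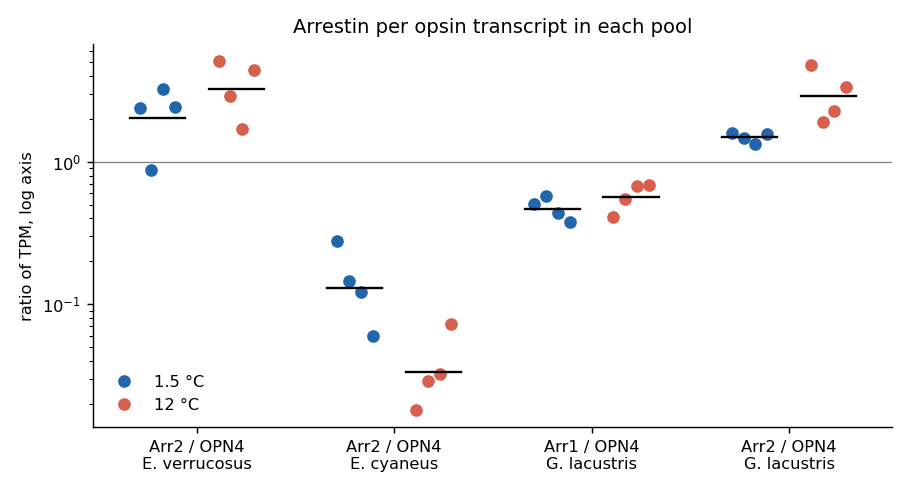
Ratio of arrestin TPM to OPN4 TPM in each pool (log axis), 1.5 °C blue and 12 °C red, with a black line at the geometric mean of 4 pools. The G. lacustris Arr2 ratios span 1.33 to 1.58 at 1.5 °C and 1.89 to 4.74 at 12 °C, and the E. cyaneus pools lie mostly the other way. Ratios of other gene pairs were not measured.

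The named transcripts most like each gene were found by Pearson r of log2 CPM over 8 pools after the mean of each temperature was subtracted, as a description. Among 1519 named transcripts of G. lacustris, those most like OPN4 were AARSD1 (r = 0.97), Arr1 (r = 0.91) and CYBRD1 (r = 0.89). Those most like Arr1 were ARHGAP18 (r = 0.92), OPN4 (r = 0.91) and the 1917-base Arr2 variant (r = 0.88). That variant was most like TOE1 (r = 0.93), Arr1 (r = 0.88) and OPN4 (r = 0.88). The 1902-base variant was most like TMEM205 (r = 0.96), KLKB1 (r = 0.91) and mRpL18 (r = 0.85).

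Among 1161 named transcripts of E. cyaneus, transcripts most like OPN4 included SLC5A6 (r = 0.97) and WTIP (r = 0.97). Arr2 was most like SLC4A1AP (r = 0.97), TEK (r = 0.96) and TRPC1 (r = 0.95), a channel of the TRPC family to which fly trp belongs. Of the 1161, 1.29% had an r above 0.90 with Arr2 and 1.64% with OPN4, so likeness at this level is not particular to the named ones. Among 1164 named transcripts of E. verrucosus, OPN4 was most like SDR39U1 (r = 0.91), CEBPG (r = 0.87) and rps24 (r = 0.87). The 2620-base Arr2 variant was most like CCNO (r = 0.97), CEBPG (r = 0.95) and TPRKB (r = 0.91), and the 2664-base variant was most like PIGH, SGTB and Uba1, with r between 0.90 and 0.91.

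Other genes that act with opsin and arrestin were taken from a list of phototransduction partners. It holds G protein subunits, phospholipase C, TRPC channels, phosphoinositide and diacylglycerol enzymes, receptor kinases, sodium-calcium exchangers and enzymes of the retinoid chromophore. In the authors' deposited table of E. cyaneus, 0 of 12 partner entries with an adjusted p were called, beside 6.27% of all entries, and in that of E. verrucosus 0 of 14 were, beside 4.69%. Both medians of log2 fold changes in the authors' deposited tables lay near 0, at -0.10 over the 21 partner entries of E. cyaneus against 0.01 over all its entries, and at -0.07 over 16 entries of E. verrucosus against 0.06.

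Among the most abundant partners of E. cyaneus, the values of the authors' deposited table were -0.05 (SE 0.26) for RPE65, a carotenoid oxygenase relative, -0.49 (SE 0.20) for ninaB, the fly enzyme that makes retinal from carotenoids, and 0.14 (SE 0.19) for GNAQ, the Gq alpha subunit. The authors' deposited table gave -0.67 (SE 0.32) for slc8a2, a sodium-calcium exchanger, 0.18 (SE 0.28) for DGKQ, a diacylglycerol kinase, and 0.28 (SE 0.27) for ADRBK2, a receptor kinase. ARRB1, a beta-arrestin that acts on many receptors, had -0.21 (SE 0.39) in the authors' deposited table. In E. verrucosus the authors' deposited table gave 0.43 (SE 0.50) for ninaB, -0.07 (SE 0.36) for the retinol dehydrogenase RDH12, -0.07 (SE 0.22) for the carotenoid oxygenase BCO1, 0.01 (SE 0.48) for RDH13 and -0.09 (SE 0.29) for ADRBK2. SLC8A3, a sodium-calcium exchanger, had -1.30 (SE 0.44) with an adjusted p of 0.0577 in the authors' deposited table.

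For G. lacustris, 12 of 22 partner entries with an adjusted p were called in the authors' deposited table, 5 as higher and 7 as lower at 1.5 °C, a share of 54.5% beside 58.9% of all entries. The median over the 23 entries was -0.28 in the authors' deposited table, against -0.41 over all entries. The 5 called higher were ADRBK2 at 1.57 (SE 0.62), MYO3A, a class III myosin like fly ninaC, at 1.45 (SE 0.45), the G protein beta subunit GNB4 at 0.82 (SE 0.21), RPE65 at 0.77 (SE 0.31) and rdgBbeta, a fly phosphatidylinositol transfer protein, at 0.76 (SE 0.33), all in the authors' deposited table. With the scaling shift subtracted, the deposited values were 0.92 for ADRBK2, 0.80 for MYO3A, 0.16 for GNB4, 0.11 for RPE65 and 0.11 for rdgBbeta. By edgeR, RPE65 had 0.12 (SE 0.29; adjusted p 0.772) and rdgBbeta 0.14 (SE 0.32; adjusted p 0.753).

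The 7 called lower were CdsA, the fly CDP-diacylglycerol synthase, at -2.38 (SE 0.66), the diacylglycerol kinases DGKQ at -2.37 (SE 0.40) and DGKI at -1.36 (SE 0.36), and EFR3B, which anchors a phosphatidylinositol kinase, at -2.23 (SE 0.57), all in the authors' deposited table. The authors' deposited table also gave -1.95 (SE 0.89) for PDE6D, a prenyl-binding protein, -1.77 (SE 0.47) for the protein kinase C PRKCA and -1.49 (SE 0.53) for PITPNM2, a relative of fly rdgB. With the scaling shift subtracted, these 7 deposited values ran from -3.04 for CdsA and -3.03 for DGKQ through -2.88 for EFR3B, -2.60 for PDE6D, -2.42 for PRKCA and -2.14 for PITPNM2 to -2.01 for DGKI. CdsA passed by edgeR too, at -3.05 (SE 0.70; adjusted p 0.00485), with 0 to 0.854 CPM at 1.5 °C and 2.29 to 5.29 CPM at 12 °C. Among abundant partners that were not called, the authors' deposited table gave -0.28 (SE 0.44) for SLC8A3, 0.43 (SE 0.50) for ninaB and -0.52 (SE 0.35) for RDH13. With the shift subtracted these deposited values were -0.94 for SLC8A3, -0.22 for ninaB, whose sign turned, and -1.18 for RDH13. The edgeR median over the 1517 paired named transcripts was -0.98, so the values of SLC8A3 and RDH13 lie near that of named genes at large.

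**Figure D5:**
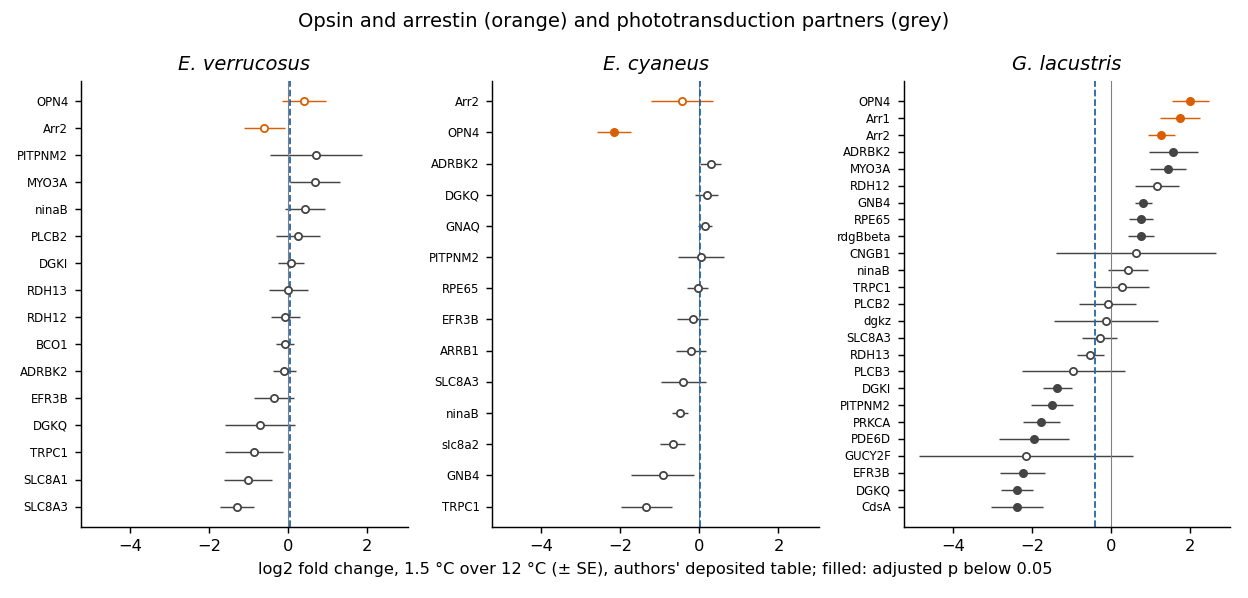
Log2 fold change of 1.5 °C over 12 °C with its SE, from the authors' deposited tables, for opsin and arrestin entries (orange) and partner entries with an adjusted p (grey); filled points have an adjusted p below 0.05, and the dashed blue line is the median of all entries. In G. lacustris OPN4 at 2.01 lies above every listed partner, and in E. cyaneus OPN4 at -2.16 lies below every listed partner.

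Markers of other tissues were counted in the same way. For E. cyaneus, 4 of 6 muscle entries with an adjusted p in the authors' deposited table were called lower at 1.5 °C, beside 4.03% of all entries, from -1.04 (SE 0.31) for TNNI1 to -1.49 (SE 0.41) for Unc-89, with sls at -1.19 (SE 0.26) and Mlc2 at -1.43 (SE 0.34). The summed level of the muscle transcripts paired there, for 5 of 7 entries, was 6303 to 10169 CPM at 1.5 °C and 11743 to 30768 CPM at 12 °C. Of 7 nervous system entries with an adjusted p, 0 were called in that table, and the summed level of the 8 of 10 entries with paired transcripts was 42.9 to 60.5 CPM at 1.5 °C and 31.6 to 62.9 CPM at 12 °C. Of 3 yolk and ovary entries with an adjusted p, 1 was called in that table, the yolk protein gene Vg, beside 6.27% of all entries. The rest of that list had -0.36 (SE 0.57) for DDX4 and 0.29 (SE 0.72) for PIWIL1 in the authors' deposited table. By edgeR Vg was higher at 1.5 °C by 2.62 (SE 0.42, adjusted p 0.0296). Its levels were 953 to 1796 CPM at 1.5 °C and 105 to 424 CPM at 12 °C. The part of these shifts in the OPN4 result was not tested.

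Of the nervous system entries of G. lacustris with an adjusted p in the authors' deposited table, 4 of 16 were called, all 4 as lower at 1.5 °C, a share of 25% beside 33.8% of all entries called lower. They were CHAT, which makes acetylcholine, at -2.55 (SE 1.02), and the synaptic genes STX1A at -2.34 (SE 0.50), SYT2 at -1.78 (SE 0.53) and Snap25 at -1.28 (SE 0.45). With the scaling shift subtracted the deposited values were -3.20 for CHAT, -2.99 for STX1A, -2.43 for SYT2 and -1.94 for Snap25. Entries not called ran from -2.90 (SE 1.68) for SLC17A7 to 0.45 (SE 2.08) for Nrx-1 in the authors' deposited table. Among the more abundant of these, CPLX1 had -0.58 (SE 0.36), DDC -0.58 (SE 0.49) and Syn -0.17 (SE 0.64) there. With the shift subtracted these stood at -1.23, -1.23 and -0.82 in that order. The summed level of the paired nervous system transcripts, for 11 of 17 entries, was 1.28 to 3.07 CPM at 1.5 °C and 6.20 to 23.4 CPM at 12 °C. The sum holds STX1A, SYT2 and CHAT, which were called lower, and leaves out Snap25, CPLX1, DDC, Syn, para and cac. SYT2 alone averaged 0.776 CPM at 1.5 °C and 4.36 CPM at 12 °C, so this sum is no level of the whole list. SYT2 passed by edgeR at -2.47 (SE 0.55; adjusted p 0.00406). Muscle transcripts, paired for 4 of 9 entries, summed to 4016 to 5708 CPM at 1.5 °C and 5284 to 6409 CPM at 12 °C, and TTN was the 1 of 9 muscle entries called, at -2.29 (SE 0.53) in the authors' deposited table and -2.95 with the shift subtracted. In E. verrucosus, sls was the 1 of 8 muscle entries called, at -1.11 (SE 0.36) in the authors' deposited table, and 0 of 5 nervous system entries were called. There the transcripts paired for 3 of 8 muscle entries summed to 10174 to 36576 CPM at 1.5 °C and 17161 to 65976 CPM at 12 °C. No paired marker transcript of these lists was at 0 in every pool, which follows from pairing by deposited means above 0 and is no check of detection. Their part in the opsin and arrestin values was not tested.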

How the data were processed

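Whole-body RNA of 24 pools of adult amphipods was sequenced, with 4 pools in each of 6 groups taken from the labels. Per the series' design text, each species was assembled apart with Trinity, cd-hit-est and TransRate, and transcripts with matches to animal sequences were retained. Salmon 1.1.0 and DESeq2 1.26.0 stand in the submitters' processing notes. Per the file headers, each library's file gives a transcript's estimated count, which is not normalised, and its TPM. In the authors' deposited tables a gene name has 1 row, holding the mean signal in normalised counts over 8 libraries, a log2 fold change with its SE, a Wald score and p-values. Series columns left unused: 0.

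Estimated counts were rounded. Within each species, 1.5 °C was set against 12 °C in edgeR 4.0.16 under R 4.3.3 by glmQLFTest (TMM factors; filterByExpr at 10 counts and 15 in total; Benjamini-Hochberg over all transcripts tested; threshold 0.05). Log2 CPM used a prior count of 2 for the likeness of genes, and none for the opsin and arrestin correlations. Alternatives were RLE and upper-quartile factors, DESeq2 1.42.0, no filter, a replicate block, summed transcripts, the authors' deposited table and leaving out each pool; the recovered size factors were added as library scaling after the data were seen. On simulated counts, a 4-fold change passed the threshold for 0% of changed transcripts of E. verrucosus (22913 tested), 58% of those of E. cyaneus (19993 tested) and 36% of those of G. lacustris (25660 tested). Changes were simulated in fewer transcripts than the real fits called in E. verrucosus (805) and G. lacustris (10824), which makes the adjusted threshold stricter. For these species the shares do not give the recovery in the real fits.

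The files do not pair names with transcripts. Names were assigned to the transcript, or the set of up to 4, whose recomputed mean equalled the deposited mean within a relative 1e-11, after dividing counts by size factors and a transcript-length offset solved from the same files, with coarse starting values found while exploring. Decoy means shifted by a relative 1e-5 gave 0 matches to single transcripts. Matches to sets were not checked with decoys. Sets were used for Arr2 and TRP of E. verrucosus and for Arr2 and OPN4 of G. lacustris. All 9 entries were paired to a transcript or a set.

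The genes and lists were chosen with earlier results of these data known, so their fold changes and p-values describe them. Named are all opsin, arrestin and trp entries, list entries that passed the threshold, the 6 most abundant partner entries of each species, and the 3 named transcripts most like each opsin or arrestin transcript; 1 of these is not reported here. DBT, PDP1 and CAC in capitals were left out of the lists after the tables were seen, since these letters also name other human genes. The labels number the pools and name no further source, so p-values measure the spread between these pools. Totals were 8501814 to 15417652 per library. Intervals are not printed, since SEs over pools hold both counting error and spread.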

Additional observations from a re-analysis of the deposited data

How the results depend on the processing

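The calls on opsin and arrestin depend on the processing more than their directions do. In E. verrucosus 0 transcripts of the set passed under every alternative run. In E. cyaneus the count of 0 became 1, OPN4, with DESeq2 and 1 in the authors' deposited table, and it was 0 to 1 as each pool was left out. All transcripts passed there at 4.27% with DESeq2, and all entries at 6.27% in the authors' deposited table. In G. lacustris the count of 0 became 1 with DESeq2, 1 with no filter, 2 with the replicate block, 3 with the recovered size factors and 3 in the authors' deposited table, and 0 to 3 as each pool was left out. Beside these, 43.5% of all its transcripts passed with DESeq2, 17735 of 61362 with no filter and 9991 of 27194 with the block. With the recovered size factors 66.2% of transcripts passed, and 58.9% of entries did in the authors' deposited table. These counts of members are thus no result about opsin or arrestin. Signs changed only when 1 pool was left out: the 2620-base Arr2 variant of E. verrucosus ran from -0.78 to 0.27, OPN4 of E. verrucosus from -0.14 to 0.67 and Arr2 of E. cyaneus from -0.77 to 0.18. A further count took the 9 transcripts under 6 alternatives: RLE factors, upper-quartile factors, DESeq2, no filter, the replicate block and the recovered size factors. These 54 fold changes all kept their sign, 46 stayed on their side of the threshold and 8 passed it. Summed transcripts and the authors' deposited table are outside that count. In the authors' deposited table OPN4 of E. cyaneus and the 3 G. lacustris entries passed as well.

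Transcripts called over the whole fit numbered 805 in E. verrucosus, 1381 with DESeq2 and 170 with the replicate block. In E. cyaneus they numbered 130, 880 with DESeq2, 44 with the block and 41 to 197 as each pool was left out. In G. lacustris they numbered 10824, of which 2639 were higher and 8185 lower; there were 17735 with no filter and 18004 with the recovered size factors, of which 10296 were higher and 7708 lower. The cause of these moves was not tested, except that no filter tests more transcripts and the recovered factors shift all fold changes. Over all transcripts tested, same-numbered pools had correlations of -0.21 to 0.11, and 1 of 12 correlated best with its own number. No pairing by number was thus seen over all transcripts, but with 4 pools a group these correlations cannot settle whether pools are paired. OPN4 and Arr1 of G. lacustris had replicate 2 highest and replicate 1 lowest at both temperatures. With the block OPN4 of G. lacustris had an adjusted p of 0.00623 and Arr1 0.0134 by edgeR. With 4 pools a group, and counts of 12 to 1302 per pool for OPN4 and Arr2 of E. cyaneus, the spread between pools set the precision.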

Other observations

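Of the screening pigment entries with an adjusted p in the authors' deposited tables, 1 of 5 was called in G. lacustris, beside 58.9% of all entries, 1 of 2 in E. cyaneus, beside 6.27%, and 0 of 5 in E. verrucosus, beside 4.69%. Both calls were TDO2, and the others of G. lacustris had 0.67 for KYNU, 0.52 for PTS, 0.55 for KMO and -0.79 for XDH in the authors' deposited table, or 0.02, -0.14, -0.11 and -1.44 in the same order with the median scaling shift of 0.65 subtracted. TDO2, the enzyme that opens the pathway from tryptophan to ommochrome pigments, was in the authors' deposited tables lower at 1.5 °C in E. cyaneus at -1.74 (SE 0.21) and in G. lacustris at -2.49 (SE 0.40), or -3.15 with the shift subtracted. By edgeR it had -1.63 (SE 0.22; adjusted p 0.0114) in E. cyaneus, with 67.4 to 104 CPM at 1.5 °C and 224 to 303 CPM at 12 °C. In G. lacustris edgeR gave TDO2 -3.20 (SE 0.46; adjusted p 0.000490), with 0.581 to 1.75 CPM at 1.5 °C and 8.20 to 21.7 CPM at 12 °C. TDO2 of E. verrucosus had 0.56 (SE 0.59) in the authors' deposited table and was not called. So TDO2 was lower in the cold in E. cyaneus, where the OPN4 mean was lower too, and in G. lacustris, where the OPN4 mean was higher. The difference between species was not tested.

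Among 5 eye development entries of G. lacustris, 2 were called, beside 58.9% of all entries. EYA4 had -1.45 (SE 0.57) and EYA1 had 1.54 (SE 0.55) in the authors' deposited table. Both are relatives of the fly eyes absent gene, and they were called in opposite directions. EYA4 was also lower by edgeR, at -2.16 (SE 0.58; adjusted p 0.0112), while the deposited values with the scaling shift subtracted were -2.10 for EYA4 and 0.88 for EYA1. Of 4 eye development entries of E. verrucosus and 1 of E. cyaneus with an adjusted p, 0 were called in the authors' deposited tables. Of 4 clock gene entries of G. lacustris with an adjusted p, 3 were called in the authors' deposited table, beside 58.9% of all entries: ARNTL at 2.58 (SE 0.67), sgg, the fly kinase shaggy, at 1.098 (SE 0.34) and BTRC at -2.12 (SE 0.35). With the shift subtracted they stood at 1.92, 0.45 and -2.77 in that order. CSNK1E, the one not called, had 0.45 (SE 0.25) in the authors' deposited table, or -0.20 with the shift subtracted. Of 4 entries of the yolk and ovary list, 1 was called there, piwil1, at -2.31 (SE 0.40) in the authors' deposited table, or -2.96 with the shift subtracted, and at -3.06 (SE 0.50; adjusted p 0.000749) by edgeR. The others had 0.59 for Vg, 1.12 for DDX4 and -0.22 for PIWIL1 in the authors' deposited table. With the shift subtracted these stood at -0.06, 0.46 and -0.87 in that order.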
